A study of Mus musculus with 8 samples.

Results

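The suppressors of cytokine signalling (SOCS) are intracellular inhibitors of cytokine receptors that use Janus kinases (JAKs) and STAT transcription factors. Cish, Socs1, Socs2 and Socs3 were described here in CD11b+ cells after stimulation with peptidoglycan (PGN), a polymer of the bacterial cell wall. They were chosen by name, with earlier results of these data known. All 4 were measured, by 11 of the 34945 probe sets with a single gene symbol and as 4 of 18193 genes. Cish and Socs1 had 1 probe set each, Socs2 had 6 and Socs3 had 3. The remaining genes of the family, Socs4 to Socs7, were set beside them.

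SOCS proteins hold an SH2 domain, which binds phosphorylated tyrosines of receptors or kinases, and a carboxy-terminal SOCS box, which recruits a ubiquitin ligase. SOCS1 and SOCS3 also carry a short region that blocks the kinase activity of JAKs. Transcription of the genes for CIS and SOCS1 to SOCS3 is switched on by the STATs they restrain, so they form a negative feedback loop, and in macrophages SOCS1 and SOCS3 limit signalling by interferon gamma and by the IL-6 receptor.

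The 8 arrays came from 4 groups of CD11b+ cells, with 2 arrays in each. The groups were NOD.Idd3 cells given PGN at 5 µg/ml for 4 h at 37 °C, NOD.Idd3 cells in medium alone, NOD cells given PGN in the same way and NOD cells in medium alone. NOD mice develop autoimmune diabetes, and NOD.Idd3 is a congenic strain with another allele at Idd3, a chromosome 3 locus that includes Il2. The SOCS members lie outside it, with Cish on chromosome 9, Socs1 on 16, Socs2 on 10 and Socs3 on 11. The sources used here give no tissue of origin, sex or age. The labels call the arrays biological replicates but do not say what a replicate was (an animal, a pool or a culture), so a p-value covers only the spread between these 8 samples.

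Values are log2 intensities, 1 per probe set and array, and the number of arrays limits their precision. CD11b is encoded by Itgam, which read 8.25 to 9.02 on NOD.Idd3 arrays and 7.87 to 8.85 on NOD arrays, while the myeloid lysozyme gene Lyz2 read 13.72 to 14.28 over the 8 arrays. The 25th percentile of an array lay between 3.84 and 4.05, which is taken here as the range of dim probe sets. Genes passed a comparison at a Benjamini-Hochberg adjusted p under 0.05 in limma, over all 18193 genes. Errors after ± are limma standard errors unless stated.

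The promoters of the 3 members that passed with PGN are shown because STAT and interferon-type elements are the classical routes to these genes. They come from RefSeq (GRCm38.p6, the C57BL/6J reference, not the NOD sequence) and run from 250 bases before to 50 after a transcript start. The windows are chr9:107296409-107296708 on the plus strand for Cish, chr16:10785487-10785786 on the minus strand for Socs1 and chr11:117969317-117969616 on the minus strand for Socs3. Capitals mark TTCNNNGAA, the core of a STAT site, in Cish and Socs3, and the repeated core of an interferon-stimulated response element in Socs1.
Cish: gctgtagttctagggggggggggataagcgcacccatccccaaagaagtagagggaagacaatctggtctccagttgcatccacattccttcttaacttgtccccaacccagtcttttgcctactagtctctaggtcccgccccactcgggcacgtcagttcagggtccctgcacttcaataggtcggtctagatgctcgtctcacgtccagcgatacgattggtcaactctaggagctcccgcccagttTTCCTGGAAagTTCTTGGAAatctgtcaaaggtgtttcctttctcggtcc
Socs1: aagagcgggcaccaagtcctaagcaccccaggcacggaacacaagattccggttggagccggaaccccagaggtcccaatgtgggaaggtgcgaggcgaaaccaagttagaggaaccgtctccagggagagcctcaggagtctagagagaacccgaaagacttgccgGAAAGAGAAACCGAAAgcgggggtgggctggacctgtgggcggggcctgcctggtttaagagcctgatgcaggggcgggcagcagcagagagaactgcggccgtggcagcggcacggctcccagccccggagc
Socs3: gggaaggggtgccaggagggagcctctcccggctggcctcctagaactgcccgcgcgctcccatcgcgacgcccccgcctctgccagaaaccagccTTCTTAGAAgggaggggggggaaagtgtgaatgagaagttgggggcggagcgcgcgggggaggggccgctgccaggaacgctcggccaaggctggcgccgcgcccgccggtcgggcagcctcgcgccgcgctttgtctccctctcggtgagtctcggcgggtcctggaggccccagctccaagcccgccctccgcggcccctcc
The search covered both strands. No promoter of Socs2, Socs5, Socs6 or Socs7 was in the set searched, so the members that passed cannot be compared with Socs2. Cish had 2 STAT cores, TTCCTGGAA and TTCTTGGAA, beginning at bases 1 and 12 after the start, and Socs3 had 1, TTCTTAGAA, beginning at base -154. Socs1 had 2 response element cores, GAAAGAGAAA and GAAACCGAAA, beginning at bases -83 and -77, which overlap. Of 32851 promoters of the same length, 8.30% held a STAT core, 0.457% held 2 or more, and 3.44% held a response element core. None of the 3 windows, nor that of Socs4, matched the NF-kB consensus, which 8.46% of promoters held, and Socs4 matched none of the 3 motifs. These matches describe letters in the windows and were not tested for binding.

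Of the SOCS members, 3 rose with PGN over both strains together, Cish and Socs3 by the most. On average Cish rose 6.30-fold, Socs3 5.35-fold on the probe set that stood for it in the fit, and Socs1 2.49-fold. Socs2 was 2.70-fold higher on average but did not pass. That was 3 of 4 members, where 11.3% of all genes passed in this comparison. Because the members were chosen with earlier results known, the share of all genes is given as background only.

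Cish encodes CIS, the first family member found and an inhibitor of receptors that signal through STAT5. It read 8.29 and 8.86 in PGN-treated NOD.Idd3 cells, against 6.40 and 5.82 in unstimulated NOD.Idd3 cells. In NOD cells it read 7.59 and 9.48 with PGN, against 5.45 and 5.93 without. All 4 PGN arrays lay above all 4 unstimulated arrays, and the PGN-treated NOD arrays lay farthest apart. The change averaged over strains was 2.66 ± 0.38 (4 arrays per condition, adjusted p = 0.00330).

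Socs1 encodes a direct inhibitor of JAKs that restrains interferon gamma signalling. It read 6.42 and 6.87 in PGN-treated NOD.Idd3 cells, against 5.35 and 5.19 in unstimulated ones. In NOD cells it read 5.90 and 6.78 with PGN, against 5.32 and 4.83 without. The conditions did not overlap, and the closest arrays were replicate 1 of PGN-treated NOD (5.90) and replicate 1 of unstimulated NOD.Idd3 (5.35). The averaged change was 1.32 ± 0.23 (adjusted p = 0.00797).

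Socs3 encodes an inhibitor that binds gp130, the signalling chain of the IL-6 receptor, and the G-CSF receptor. By probe set 1455899_x_at, the one with the highest mean, it read 13.03 and 12.75 in PGN-treated NOD.Idd3 cells, against 10.77 and 11.14 in unstimulated ones. In NOD cells the same probe set read 13.38 and 13.29 with PGN, against 11.15 and 9.72 without. The conditions were clearly apart, and the widest gap between replicates was in unstimulated NOD cells. The averaged change was 2.42 ± 0.29 (adjusted p = 0.00141).

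Socs2 encodes an inhibitor best known for restraining growth hormone signalling. It read 8.62 and 9.90 in PGN-treated NOD.Idd3 cells, against 7.83 and 7.59 in unstimulated ones. In NOD cells it read 8.45 and 10.46 with PGN, against 7.48 and 8.80 without. The conditions overlapped, because replicate 2 of unstimulated NOD lay above replicate 1 of both PGN groups. The averaged change was 1.43 ± 0.48 (adjusted p = 0.101). With the replicate number as a block it passed (adjusted p = 0.0165), as it did without replicate 1 of PGN-treated NOD (1.94, adjusted p = 0.0280).

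**Figure D1:**
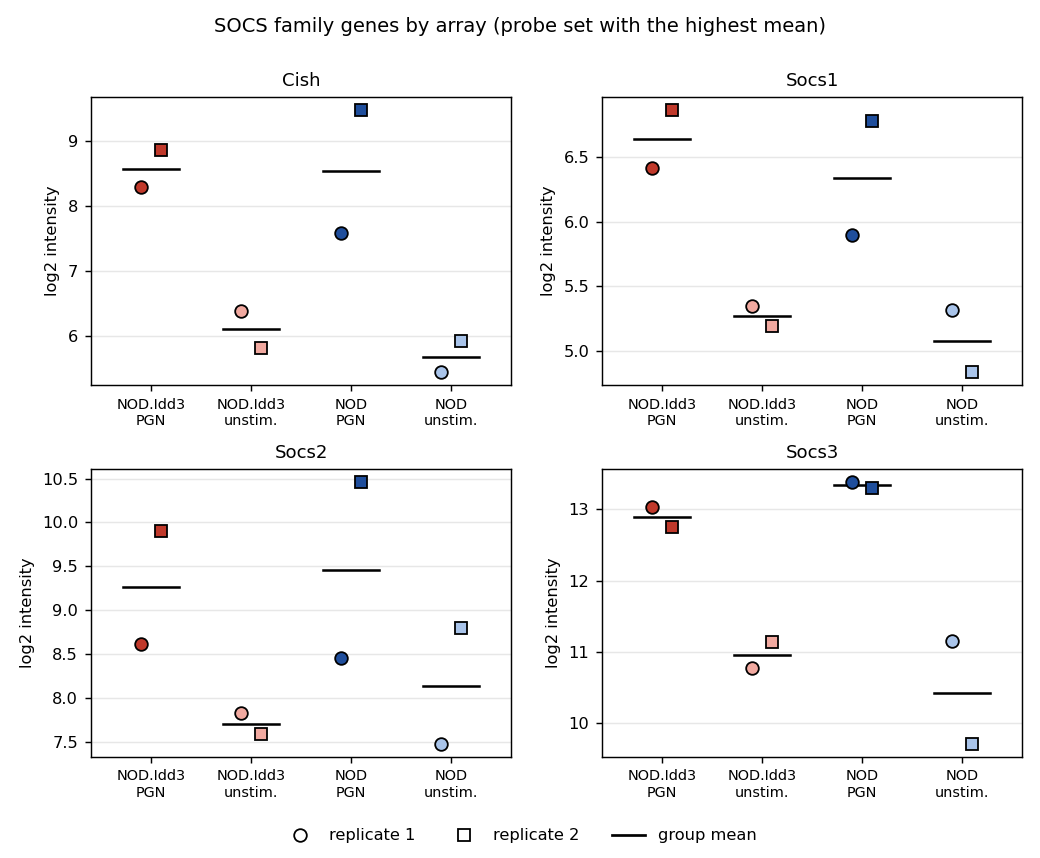
Log2 intensity of Cish, Socs1, Socs2 and Socs3 on each of the 8 arrays, by group, with each panel on its own scale. Circles are replicate 1, squares are replicate 2 and bars are group means. PGN and unstimulated arrays are apart for Cish, Socs1 and Socs3 and overlap for Socs2, where replicate 2 of unstimulated NOD reads 8.80.

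Within each replicate number, every member was higher with PGN in each strain. For Cish the difference in NOD.Idd3 was 1.89 in replicate 1 and 3.04 in replicate 2, and in NOD it was 2.14 and 3.55. Socs1 differed by 1.06 and 1.68 in NOD.Idd3 and by 0.58 and 1.95 in NOD. For Socs2 the differences were 0.79 and 2.31 in NOD.Idd3 and 0.97 and 1.66 in NOD. The difference was larger in replicate 2 than in replicate 1 for these 3 genes in both strains. For Socs3 this depended on the probe set. By 1455899_x_at the differences were 2.26 and 1.61 in NOD.Idd3 and 2.24 and 3.58 in NOD, whereas by 1416576_at they were 4.23 and 4.41 in NOD.Idd3 and 3.61 and 4.93 in NOD, larger in replicate 2 in both strains.

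The measured size of the Socs3 rise differed between its probe sets. Probe set 1416576_at, which the platform annotation ties to a RefSeq transcript, read 13.26 and 13.73 in PGN-treated NOD.Idd3 cells, against 9.03 and 9.32 in unstimulated ones. In NOD cells it read 12.74 and 13.29 with PGN, against 9.13 and 8.36 without. Put in place of 1455899_x_at, it gave an averaged change of 4.29 ± 0.23 (adjusted p = 5.07e-05), which is 19.6-fold rather than 5.35-fold. The suffix _x_at marks probe sets whose probes can match other sequences as well.

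The third probe set, 1456212_x_at, lay between them at 3.03 ± 0.19 (adjusted p = 9.79e-05), or 8.18-fold. It read 13.13 and 13.10 in PGN-treated NOD.Idd3 cells, against 10.11 and 10.33 in unstimulated ones, and in NOD cells 13.09 and 12.91 with PGN, against 10.23 and 9.43 without. The conditions stayed apart in every Socs3 probe set. The change of 1416576_at exceeded that of 1455899_x_at by 1.87 and that of 1456212_x_at by 1.26 on the log2 scale. It was larger in 4 of 4 pairs of strain and replicate number in both cases, by 1.36 to 2.80 and by 0.75 to 1.64. A two-sided exact permutation test that swapped conditions only within these pairs gave p = 0.125 for each, the smallest that its 16 arrangements allow, so this design cannot pass 0.05. With the pairing ignored, the 70 arrangements of the 8 arrays gave an exact p = 0.0286 for each (0.0429 adjusted over the 3 pairs of probe sets). That p is also the smallest these arrangements allow, and it leaves out the pairing used elsewhere here. The _x_at probe sets differed from each other by -0.61 (1455899_x_at minus 1456212_x_at), with exact p = 0.25 within pairs and 0.0857 without. This comparison was chosen after the values were seen, and what sets the difference was not tested.

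**Figure D2:**
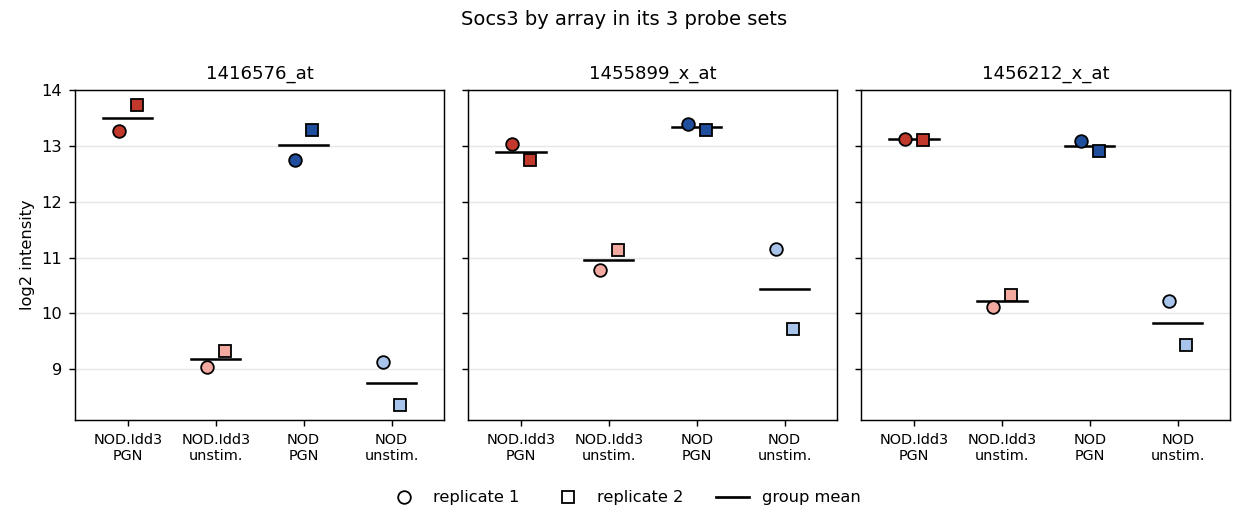
Log2 intensity of Socs3 in its 3 probe sets on each of the 8 arrays, on a shared scale. Circles are replicate 1, squares are replicate 2 and bars are group means. PGN and unstimulated arrays are farthest apart in 1416576_at, where the averaged change is 4.29, and closest in 1455899_x_at, where it is 2.42.

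Of the 6 Socs2 probe sets, only 1418507_s_at and 1449109_at, both tied to a RefSeq transcript, read clearly above the dim range. By 1449109_at Socs2 read 7.03 and 8.25 in PGN-treated NOD.Idd3 cells, against 6.56 and 6.23 in unstimulated ones, and in NOD cells 6.99 and 8.51 with PGN, against 6.33 and 7.20 without. Its averaged change was 1.12 ± 0.39 (adjusted p = 0.110, or 0.0267 once replicates were blocked). The other 4 Socs2 probe sets had means between 3.63 and 4.11 and changes of 0.28 to 0.43, none of which passed.

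Within NOD.Idd3 cells, 2 of the 4 members passed, where 3.14% of all genes did (572, but 56 to 300 without any 1 of the 4 NOD.Idd3 arrays). Cish rose by 2.47 ± 0.54 (2 arrays per group, adjusted p = 0.0476) and Socs3 by 1.93 ± 0.41 (adjusted p = 0.0422). Socs1 changed by 1.37 ± 0.33 (adjusted p = 0.0641, or 0.0415 once replicates were blocked) and Socs2 by 1.55 ± 0.68 (adjusted p = 0.324). Without any 1 of the 4 NOD.Idd3 arrays none of the members passed, and without either unstimulated NOD array only Socs3 did. Without either PGN-treated NOD array Socs3 no longer passed (adjusted p = 0.0655) and Socs1 did (0.0392). By probe set 1416576_at the Socs3 rise in NOD.Idd3 was 4.32 ± 0.32 (adjusted p = 0.000855).

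Within NOD cells, Cish rose by 2.84 ± 0.54 (adjusted p = 0.0253) and Socs3 by 2.91 ± 0.41 (adjusted p = 0.00909), so that 2 of 4 members passed, against 3.94% of all genes (717). Socs1 changed by 1.26 ± 0.33 (adjusted p = 0.0724, or 0.0468 once replicates were blocked) and Socs2 by 1.32 ± 0.68 (adjusted p = 0.341). The count of members was 0 without replicate 2 of PGN-treated NOD, 1 without either unstimulated NOD array and 3 when replicate 1 of PGN-treated NOD was left out. Over all genes the count was 77 without replicate 2 of PGN-treated NOD, 442 without its replicate 1 and 103 without replicate 2 of unstimulated NOD. Socs2 within NOD ran from 0.31 to 2.32 over the arrays left out, and within NOD.Idd3 from 0.91 to 2.19, without passing. By probe set 1416576_at Socs3 rose by 4.27 ± 0.32 in NOD (adjusted p = 0.000737).

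**Figure D3:**
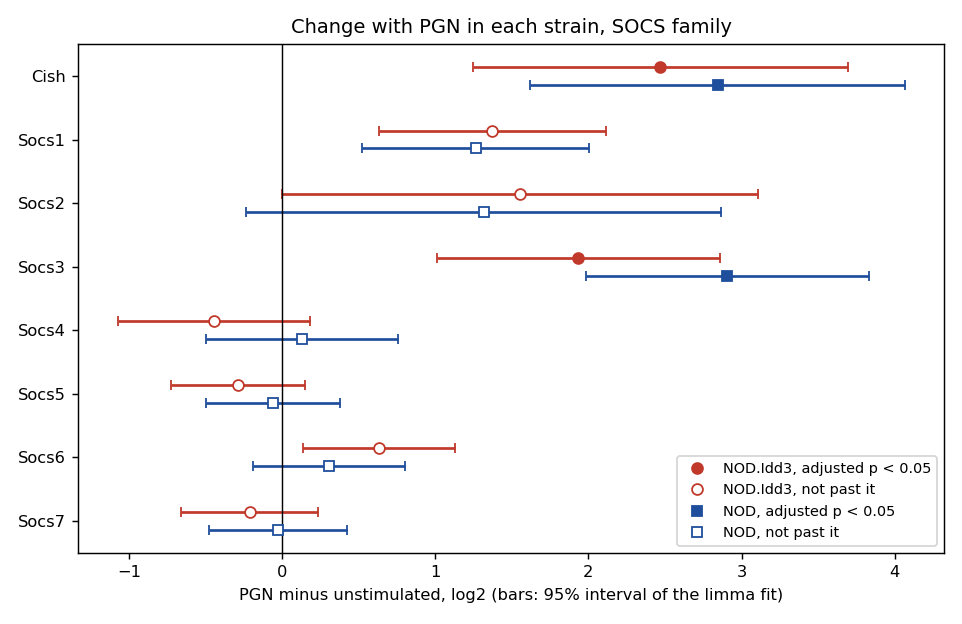
Log2 change with PGN of the 8 SOCS family genes in NOD.Idd3 (circles) and NOD (squares), with the 95% interval of the limma fit. Filled symbols passed at an adjusted p under 0.05. Only Cish and Socs3 are filled, in both strains. The intervals of Socs4, Socs5 and Socs7 span 0 in both strains, and those of Socs2 and Socs6 span 0 in NOD.

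No difference between the strains in the response of any member passed. The difference, NOD.Idd3 minus NOD, was -0.38 for Cish (95% interval -2.11 to 1.36), 0.11 for Socs1 (-0.94 to 1.16) and 0.24 for Socs2 (-1.96 to 2.43). For Socs3 it was -0.97 (-2.28 to 0.34) by 1455899_x_at and 0.05 ± 0.46 by 1416576_at. The intervals for Cish and Socs2 leave room for strain differences of over 2-fold either way. In limma 0% of all genes (0 of 18193) passed for this difference, with 314 at an unadjusted p under 0.05.

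Levels of the members were also compared between the strains directly. Averaged over conditions, NOD.Idd3 minus NOD was 0.23 ± 0.38 for Cish, 0.25 ± 0.23 for Socs1, -0.31 ± 0.48 for Socs2 and 0.04 ± 0.29 for Socs3. With PGN the differences were 0.04, 0.30, -0.20 and -0.45 in the same order of genes, with standard errors of 0.33 to 0.68. In unstimulated cells they were 0.42, 0.19, -0.43 and 0.52. None passed, with adjusted p from 0.862 to 0.989 in the averaged and PGN comparisons and 1.00 in unstimulated cells. In the averaged comparison Socs3 differed by 0.46 ± 0.23 by 1416576_at and by 0.25 ± 0.19 by 1456212_x_at. Neither passed in the limma fit over all probe sets (adjusted p = 0.716 and 0.832). Over both conditions, the arrays of the strains overlapped for every member. In limma 0% of genes passed in each of these 3 comparisons, with 1175 (averaged), 984 (with PGN) and 611 (unstimulated) at an unadjusted p under 0.05. With the replicate block, 27 genes passed in the averaged comparison, none of them a member, and 0 in each of the other comparisons between strains.

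Some measures moved with strain or PGN and stand beside these comparisons. For the Gapdh controls, a sign of RNA or labelling quality, the 3' probe set exceeded the 5' one by 0.72 to 0.80 (log2) on NOD.Idd3 arrays and by 0.88 to 1.16 on NOD arrays. The same measure for Actb overlapped, at 0.22 to 0.46 on NOD.Idd3 arrays and 0.43 to 0.58 on NOD arrays. The summed level of 5 B cell markers was 9.20 to 10.26 on NOD.Idd3 arrays and 10.21 to 12.04 on NOD arrays, with 0 of 5 passing. For 7 macrophage markers the summed level was 14.05 to 14.36 in NOD.Idd3 and 14.34 to 14.59 in NOD. Their median NOD.Idd3 minus NOD difference, averaged over conditions, was -1.37, with 0 of 7 above 0. The strains did not overlap for Mrc1, C1qa, C1qb, C1qc and Mertk, and overlapped for the brighter Adgre1 and Cd68. Again 0 passed, where 0% of all genes did. With PGN, where 11.3% of all genes passed in either direction, 3 of 8 neutrophil markers fell (summed level 16.37 to 16.44 with PGN and 16.50 to 16.92 without). Of 4 platelet markers 2 fell (9.45 to 10.34, and 10.82 to 12.65), and of 5 T cell markers 1 fell (10.62 to 11.24, and 11.80 to 12.60). The T cell sum mostly followed Cd3d (10.18 to 11.03, and 11.61 to 12.44). Cd3g was also apart, while Cd3e, Cd4 and Cd8a overlapped between conditions. Of 4 NK cell markers 1 fell, and their summed levels overlapped (9.64 to 10.97, and 9.75 to 10.43). Gzma was higher with PGN in every pair of strain and replicate number. In bulk samples, fewer cells of a type and less RNA per cell cannot be told apart, and the part of these cells in the SOCS changes was not tested.

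By group, Cish and Socs1 had the same order of means. PGN-treated NOD.Idd3 was highest, then PGN-treated NOD, unstimulated NOD.Idd3 and unstimulated NOD, and only the step between the PGN groups and the unstimulated groups was free of overlap. Socs2 was highest in PGN-treated NOD and lowest in unstimulated NOD.Idd3, with overlap at each step. For Socs3 by 1455899_x_at the PGN-treated NOD.Idd3 arrays (13.03 and 12.75) lay below the PGN-treated NOD arrays (13.38 and 13.29), whereas by 1416576_at they overlapped (13.26 and 13.73 in NOD.Idd3, against 12.74 and 13.29 in NOD).

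None of Socs4 to Socs7 passed in any comparison of the main fit, and they were not examined with the replicate block. Averaged over strains, Socs6 changed by 0.47 ± 0.15 with PGN (adjusted p = 0.0921), Socs4 by -0.16 ± 0.19, Socs5 by -0.17 ± 0.14 and Socs7 by -0.12 ± 0.14. Socs6 read 8.01 and 8.13 in PGN-treated NOD.Idd3 cells, against 7.37 and 7.51 in unstimulated ones, and in NOD cells 7.49 and 7.73 with PGN, against 7.11 and 7.49 without. Its other probe sets gave -0.29 (1435492_at) and 0.00495 (1452764_at). SOCS5 and SOCS4 have been linked to signalling by the EGF receptor. Socs4 probe sets ranged from -0.16 to 0.58 and Socs7 probe sets from -0.12 to 0.52, and none passed in the fit over all probe sets.

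The genes around the SOCS loop were counted from lists of JAK-STAT components and textbook STAT targets. Of 19 measured ligands that signal through JAKs, 8 rose and 0 fell with PGN (median log2 change 1.00, against 0.05 over all genes). Csf3, which encodes G-CSF, rose by 7.07 ± 0.24, Il10 by 6.52 ± 0.28, Il23a by 4.11 ± 0.52 and Il12a by 3.76 ± 0.53. Il6 rose by 2.73 ± 0.38. Csf2, which encodes GM-CSF, is counted among the 8 but was dim. It read 4.12 to 4.69 with PGN, above the 25th percentile range, and 3.24 to 3.81 without, below that range. The size of its change is therefore not given. Interferon gamma (Ifng) and interferon beta (Ifnb1) changed by 1.91 ± 0.60 (adjusted p = 0.0819) and 0.94 ± 0.38 (adjusted p = 0.168) and did not pass.

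Of 24 receptor chains 5 rose and 2 fell (median 0.32). Il2ra (CD25, part of the high-affinity receptor for IL-2) rose by 2.69 ± 0.38, Il4ra by 1.66 ± 0.19 and Il7r by 1.04 ± 0.16. Osmr, a receptor chain for oncostatin M, also passed but was dim, at 3.84 to 4.61 with PGN and 2.57 to 3.55 without. Ifngr1, the ligand-binding chain of the interferon gamma receptor, fell by 0.96 (SE 0.16, adjusted p = 0.00700). The receptor chains that SOCS3 docks on did not pass, with Il6st (gp130) at 0.42 ± 0.15 (adjusted p = 0.123) and Csf3r at -0.82 ± 0.26 (adjusted p = 0.0849).

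Among 6 measured STAT genes 2 rose, Stat5a by 1.16 ± 0.17 and Stat3 by 0.76 ± 0.16, while Stat5b changed by 0.03 ± 0.14. None of the 4 JAK genes passed, with Jak3 the highest at 0.95 ± 0.28 (adjusted p = 0.0677). Among 12 other inhibitors of the pathway 2 rose and 2 fell. Pias4 rose by 0.84 ± 0.16 and Dusp1 by 0.74 ± 0.16, and Sh2b3, which encodes the adaptor LNK, fell by 1.24 (SE 0.17). None of the 4 genes for the ubiquitin ligase that the SOCS box recruits (Cul5, Rnf7, Eloc and Elob) passed (median -0.06).

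Of 10 textbook STAT5 targets 5 rose and 1 fell (median 1.14), with Bcl2l1 at 2.19 ± 0.14, Id1 at 1.70 ± 0.19, Pim2 at 1.69 ± 0.35 and Bcl2 at -1.14 ± 0.28. STAT3 targets gave 5 rises and 2 falls of 11 (median 0.62), with Saa3 at 1.78 ± 0.40 and Junb at 1.57 ± 0.16. The lists share genes, among them Bcl2l1, Il2ra and Il4ra, and the background for each count is the 11.3% of genes that passed.

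**Figure D4:**
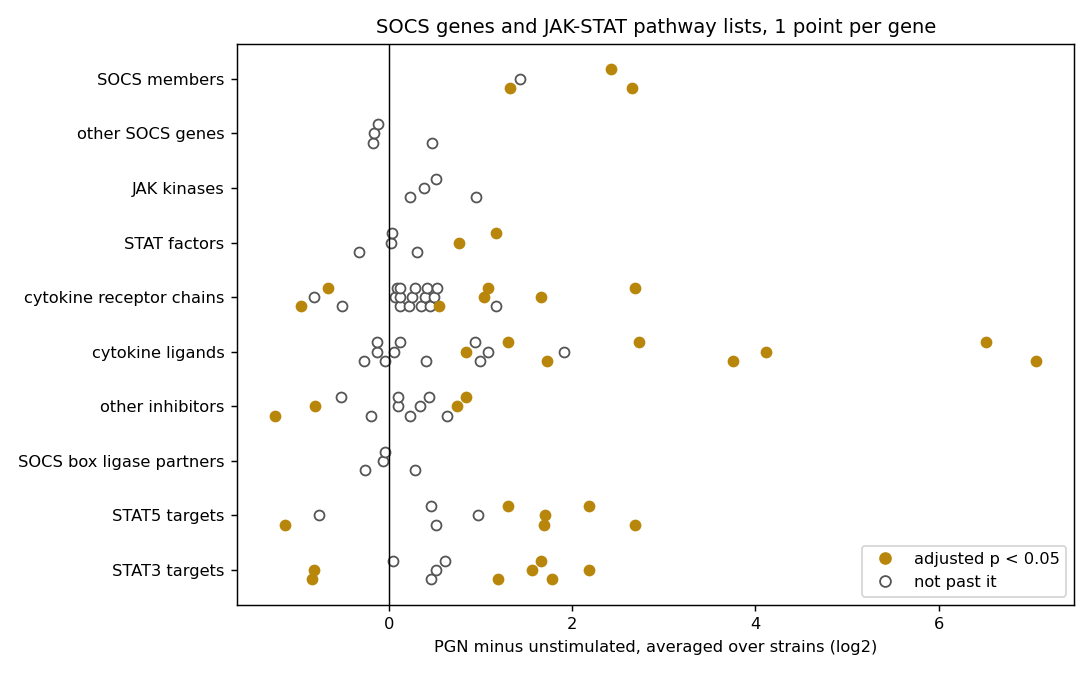
Log2 change with PGN averaged over strains, 1 point per gene, for the SOCS members, the other SOCS genes and the JAK-STAT lists. Filled points passed at an adjusted p under 0.05. Filled symbols mark 3 of 4 SOCS members, between 1.32 and 2.66, while the other SOCS genes and the JAK genes are open, and among the ligands Csf3 reaches 7.07.

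The genes whose values followed each member most closely over the 8 arrays were taken by Pearson's r. This is a description only, since PGN and unstimulated arrays were apart for Cish, Socs1 and Socs3. Cish was closest to Timp1 (r = 0.99), a metalloproteinase inhibitor gene, then Slamf1 (0.99) and Lrrc75a (0.98). Socs1 was closest to G0s2 (0.99), the metallothionein gene Mt2 (0.99) and Gfpt2 (0.98). Socs2 was closest to Dexi, Iars2 and Kcnmb4 (0.97 to 0.98), but Socs2, Iars2 and Kcnmb4 overlapped between conditions and also moved with the replicate number. With PGN, Iars2 read 8.05 (NOD.Idd3) and 8.02 (NOD) in replicate 1, against 8.44 and 8.55 in replicate 2. Socs3 by 1455899_x_at was closest to Tnf (0.99), Ier3 (0.99) and Gm6377 (0.98). By 1416576_at its closest genes were Raph1, Ptx3 and Ido2 (0.99 to 1.00), so the order of likeness changed with the probe set.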

How the data were processed

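Biotin-labelled total RNA was measured on 8 single-channel Affymetrix arrays, with all 8 used and grouped by the sample labels. The deposited table holds 1 intensity per probe set on a linear scale. RMA is named, without a version, per the submitters' processing notes, and the sources used here give neither software nor chip definition. The log2 of each deposited intensity was taken without further normalization or filter. The design had assumed log2 values.

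Probe sets were named from the platform annotation, which left out 64 control probe sets, 9160 with no symbol and 932 with several. Symbols were updated through RefSeq (GRCm38.p6). Where a gene had several probe sets, the one with the highest mean stood for it. Group means were compared with limma 3.58.1 in R 4.3.3 (lmFit, eBayes), with 4 residual and 4.69 prior degrees of freedom, over 18193 genes. The limma fit was also run on simulated data with independent noise, which lacked the correlation between groups given below. The named genes were the SOCS family, up to 4 passing members of each list, key ligands, receptors and STATs, and the 3 genes most like each member. Jak3, Ifngr1 and Bcl2 fall outside that rule and were named after their values were seen. Members and lists were chosen with earlier results of these data known.

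Replicate 1 arrays share a date in their names, and the difference between replicates 1 and 2 correlated between groups across genes (r between 0.17 and 0.42 in all 6 group pairs), so equal numbers were treated as pairs. The main fit has no such term, and blocked values are given where they change a call of a member. Calls of the other named genes are those of the main fit and were not examined under the block. Alternatives were the replicate block, a term for the suffix RR1 of array names, a variance trend, a filter on dim genes, other ways of choosing probe sets, further quantile normalization, array weights, fits of the arrays compared and leaving out each array.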

Additional observations from a re-analysis of the deposited data

How the results depend on the processing

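The averaged rises of Cish, Socs1 and Socs3 passed under each alternative and without each array. Over the arrays left out, Cish ran from 2.18 to 3.13, Socs1 from 1.10 to 1.54, Socs3 from 2.06 to 2.78 and Socs2 from 0.93 to 1.94, and the count of members that passed from 3 to 4. Socs2 passed with the replicate block (1.43), with the suffix RR1 as a term (1.73) and by 1449109_at with the block (1.12). The block moved no other averaged call of a member. The count within NOD.Idd3 ran from 0 to 2 over the arrays left out and was 1 with the RR1 term, and 3 with the replicate block, with array weights and in the fit of the 4 arrays compared. Within NOD it ran from 0 to 3, was 1 in the fit of the 4 arrays compared and 3 with the block. Over all genes the averaged count was 2049, with 3082 under the block and 1111 to 2139 over the arrays left out (leaving out unstimulated NOD.Idd3 replicate 2 gave 1111, its replicate 1 gave 1249, unstimulated NOD replicate 2 gave 1253 and PGN-treated NOD.Idd3 replicate 2 gave 1299). The counts were 1207 under the block, 235 with the RR1 term and 994 with array weights within NOD.Idd3 (572 as reported). Within NOD they were 1586 under the block, 410 with array weights and 416 in the fit of the arrays compared (717 as reported).

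Strain differences of members did not pass under any alternative, and several changed sign. For the difference in response, Cish was 0.11 with the RR1 term, Socs1 -0.0036 after quantile normalization, Socs2 -0.47 by 1441476_at and -0.0597 by 1446085_at, and Socs3 0.0495 without _x_at and _s_at probe sets and by 1416576_at, blocked or not. Over the arrays left out they ran from -1.32 to 0.57 (Cish), -0.34 to 0.55 (Socs1), -0.77 to 1.24 (Socs2) and -1.69 to -0.26 (Socs3). Averaged over conditions, Socs2 was 0.17 by 1438470_at and 0.0107 by 1446085_at, and Socs3 -0.12 with the RR1 term, with ranges of -0.24 to 0.70 (Cish), -0.82 to 0.19 (Socs2) and -0.32 to 0.39 (Socs3). With PGN, Cish was -0.0771 after quantile normalization, Socs2 0.40 with the RR1 term and 0.52 by 1438470_at, and Socs3 0.0492 by the mean of its probe sets, 0.48 by 1416576_at and 0.12 by 1456212_x_at. The ranges with PGN were -0.90 to 0.98 (Cish), -0.14 to 0.74 (Socs1) and -1.20 to 0.81 (Socs2). Unstimulated, Socs2 was 0.0405 by 1446085_at, with ranges of -0.0488 to 0.44 (Socs1), -1.09 to 0.23 (Socs2) and -0.19 to 1.24 (Socs3). Alternatives that swap a Socs2 or Socs3 probe set were chosen after seeing the data. The cause of these changes was not tested, and 2 arrays per group limit all of them.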
